A study of Mus musculus with 4 samples.

Results

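Crxos, Crx, Obox1, Obox2, Obox3, Obox5 and Obox6 are 7 homeobox genes that lie side by side on mouse chromosome 7. They were examined together with every listed ChIP-Seq region whose midpoint falls between 15 and 16.1 Mb of that chromosome in mm10, a window of 1.10 Mb. Of 31315 regions in all, 14 fell in the window. The genes were picked because Crxos carried a high H3K27ac score in NOD embryonic stem (ES) cells, so the H3K27ac scores and counts below describe the choice and support nothing. ES cells had been isolated from embryos of non-obese diabetic (NOD) mice, which develop autoimmune diabetes, and of C57BL/6 (B6) mice, and both were kept in 2i, a medium with inhibitors of MEK and GSK3. No genetic change or further treatment is given for either strain, and the labels do not say which or how many ES cell lines went into a library. Each strain and each mark was represented by 1 library, which gave 4 libraries and no replicates, so no difference below has a replicate check and none was tested. Each of the 4 deposited lists was called with the other strain as background, so it holds regions called higher in its own strain (strain-enriched regions), and a gene marked to a like degree in both strains has no entry.

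Homeobox genes encode transcription factors that bind DNA through the homeodomain. Crx is best known as a factor of photoreceptors in the retina and the pineal gland, where it turns on genes of phototransduction. Crxos, Crx opposite strand, starts close to Crx, is read in the other direction and encodes homeodomain proteins of its own. The Obox genes, oocyte-specific homeobox genes, form a rodent cluster that is known for its activity in oocytes and in the first cleavage stages of the embryo. H3K4me3 is found mainly at promoters in use, whereas H3K27ac marks active promoters and enhancers and, in long stretches, super enhancers.

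The main difference in the window was at Crxos. A single NOD-enriched H3K27ac domain of 23.9 kb spanned the whole gene and all 3 of its transcription start sites (TSSs). The list gives it a single score, so the spread of the mark within it and its level at each start are not known. NOD-enriched H3K4me3 lay over the second and the third of these starts. No B6-enriched H3K27ac region was listed anywhere in the window. Obox3 and Obox6 each had a single short NOD-enriched H3K27ac region of low score, and Obox1, Obox2 and Obox5 had no region of either mark in either list. Crx had none inside the gene, and the edge of the Crxos domain lay 1.68 kb from its upstream start.

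The sequences at the Crxos start sites are given first, since the NOD-enriched domain spans all of them. Each is the RefSeq promoter of build GRCm38.p6, the same build as mm10, from 250 bases before to 50 bases after the start, read 5′ to 3′ on the strand of the gene, with CpG dinucleotides in capitals. The 3 Crxos promoters lie at chr7:15882367-15882666, chr7:15895874-15896173 and chr7:15901396-15901695 on the plus strand.
Crxos, the first start: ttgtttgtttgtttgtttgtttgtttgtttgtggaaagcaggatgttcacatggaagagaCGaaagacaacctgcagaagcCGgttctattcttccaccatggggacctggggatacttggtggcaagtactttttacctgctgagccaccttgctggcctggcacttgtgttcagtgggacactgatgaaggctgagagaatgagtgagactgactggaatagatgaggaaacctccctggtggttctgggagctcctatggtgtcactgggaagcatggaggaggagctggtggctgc
Crxos, the second start: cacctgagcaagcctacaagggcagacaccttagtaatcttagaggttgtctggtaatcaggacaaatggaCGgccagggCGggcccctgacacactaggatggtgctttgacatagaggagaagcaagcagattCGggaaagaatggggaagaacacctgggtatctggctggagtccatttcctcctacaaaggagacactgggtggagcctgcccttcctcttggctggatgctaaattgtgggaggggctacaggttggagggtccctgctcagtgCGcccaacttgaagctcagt
Crxos, the third start: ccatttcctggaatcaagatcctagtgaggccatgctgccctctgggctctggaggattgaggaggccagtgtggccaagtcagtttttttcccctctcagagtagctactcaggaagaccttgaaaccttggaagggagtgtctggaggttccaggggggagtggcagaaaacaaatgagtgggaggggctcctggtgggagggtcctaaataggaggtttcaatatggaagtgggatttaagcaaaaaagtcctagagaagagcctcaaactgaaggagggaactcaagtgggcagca

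These promoters were poor in CpG. They held 2, 4 and 0 CpG dinucleotides in the order printed, against a median of 7 over 32851 RefSeq promoters of the same length, of which 31.4% held 3 or fewer. The third start, which had no CpG in its 300 bases, lay under the strain-enriched region with the most H3K4me3 tags in the window. The 3 promoters shared little sequence with each other, with 40.1% to 47.7% identical positions in pairwise alignments.

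The Crx promoter, at chr7:15879906-15880205 on the minus strand, is shown because it is the nearest start outside the domain.
Crx: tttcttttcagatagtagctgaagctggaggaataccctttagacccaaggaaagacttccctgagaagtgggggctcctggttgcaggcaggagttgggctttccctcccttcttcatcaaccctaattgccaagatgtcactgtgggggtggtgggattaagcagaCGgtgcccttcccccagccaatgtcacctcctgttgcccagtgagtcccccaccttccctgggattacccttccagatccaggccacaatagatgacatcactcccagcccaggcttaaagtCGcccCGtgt

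It held 3 CpG dinucleotides and 2 copies of TAATCC, the core site bound by homeodomains of the Crx and Otx class, both of them on the reverse strand. The search covered both strands, and neither the octamer nor the Dux-type site, which were searched as well, was found in any member promoter. Of the 8 member promoters that were matched in the RefSeq table, 2 held this core site (those of Crx and Obox3), and 7.06% of all promoters did. Of the 10 member starts, that of Obox6 and the second of Crx were not matched.

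The Crxos domain extended from 15881632 to 15905579. It began 0.985 kb before the first Crxos start at 15882617 and ended 1.55 kb past the end of the gene at 15904030. Its score, the H3K27ac signal of NOD minus that of B6 in units that the deposited lists leave undefined, was 986, which ranked 3 of 6126 NOD-enriched regions. This was 87.7% of the summed score of 1124 over all 6 NOD-enriched H3K27ac regions of the window, and 11.5 times the next score there, 86.1 at Zfp541 and Napa. The domain was wide rather than dense. It ranked 18 by width, and at 41.2 per kb its score ranked 2493 of the list per base pair, near the list median of 37.1 per kb. Among the 254 regions of at least 10 kb, however, it ranked 7 by score per kb, where the median was 9.04.

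**Figure D1:**
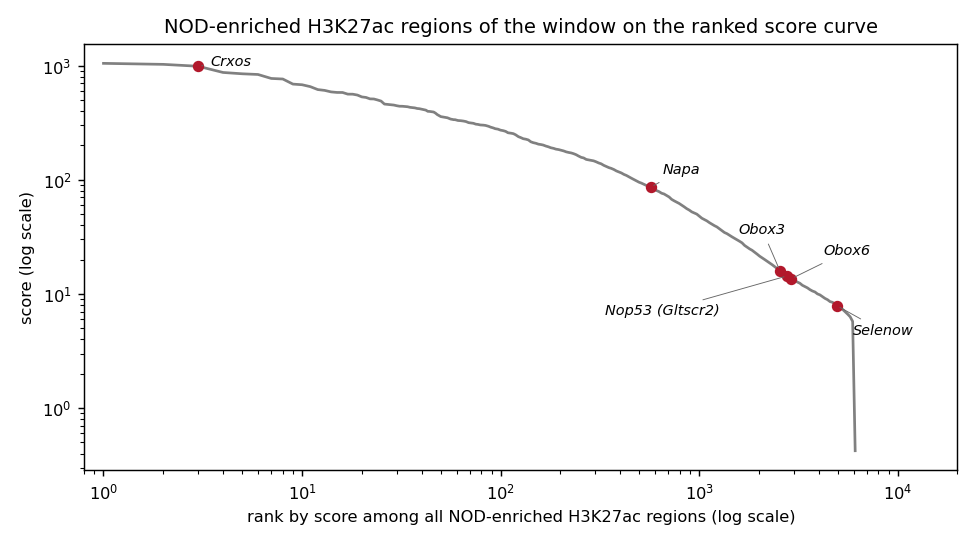
Score of all NOD-enriched H3K27ac regions with a score above 0 (grey line, own-strain minus other-strain signal, log scale) against their rank (log scale), with the 6 regions of the chromosome 7 window as red points named by the gene that the file assigns. The Crxos domain sits at rank 3 with a score of 986, and the Obox3 and Obox6 regions sit at ranks 2554 and 2914 with scores of 15.9 and 13.6.

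RefSeq gives Crxos 4 transcripts from its 3 start sites. The first start, at 15882617, belongs to a non-coding transcript of 5 exons. The second, at 15896124, is shared by 2 coding transcripts, of 246 and 120 amino acids. The third, at 15901646, begins a short coding transcript of 3 exons and 142 amino acids.

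H3K4me3 was listed at the coding starts and not at the non-coding one. Over the third start, the region from 15901451 to 15903356 had 489 tags in NOD and 11 in B6, or 215 against 7.44 tags per 10000000 tags of the library. Scaled by the library totals of 22750449 NOD tags and 14791364 B6 tags, NOD was 28.9-fold higher (95% interval 16.0 to 58.3, counting error only). This scaling does not correct for a difference in ChIP enrichment between the 2 libraries. The NOD list held 604760 NOD tags and the B6 list 194798 B6 tags, and the part of such a difference in the folds was not tested. The region ranked 69 of 12077 by normalised tags, and of the 69 NOD-enriched regions with at least as many tags 9 had at least as high a fold, itself included.

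Over the second start, the region from 15895878 to 15896378 had 28 tags in NOD and 2 in B6, which made NOD 9.10-fold higher (95% interval 2.30 to 78.8). That is close to the list median of 30 NOD tags and 2 B6 tags, and its interval includes the median fold of 6.50 of regions with tags in both libraries. The nearest strain-enriched H3K4me3 region to the first start lay 13.3 kb away. H3K4me3 of a like level in both strains at the first start would not be listed.

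Both regions lay inside the H3K27ac domain. Together they covered 2.41 kb or 10.04% of the length of the domain, and tags over the rest of it are not listed. Of the 100 NOD-enriched H3K27ac regions with the highest scores, 65 overlapped a NOD-enriched H3K4me3 region, so such an overlap was common among regions of that rank. Over the whole list of 6126 regions the share was 9.86%. Of the 254 regions of at least 10 kb, 112 overlapped such a region and 10 had more summed H3K4me3 than the 227 normalised tags in the Crxos domain.

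**Figure D2:**
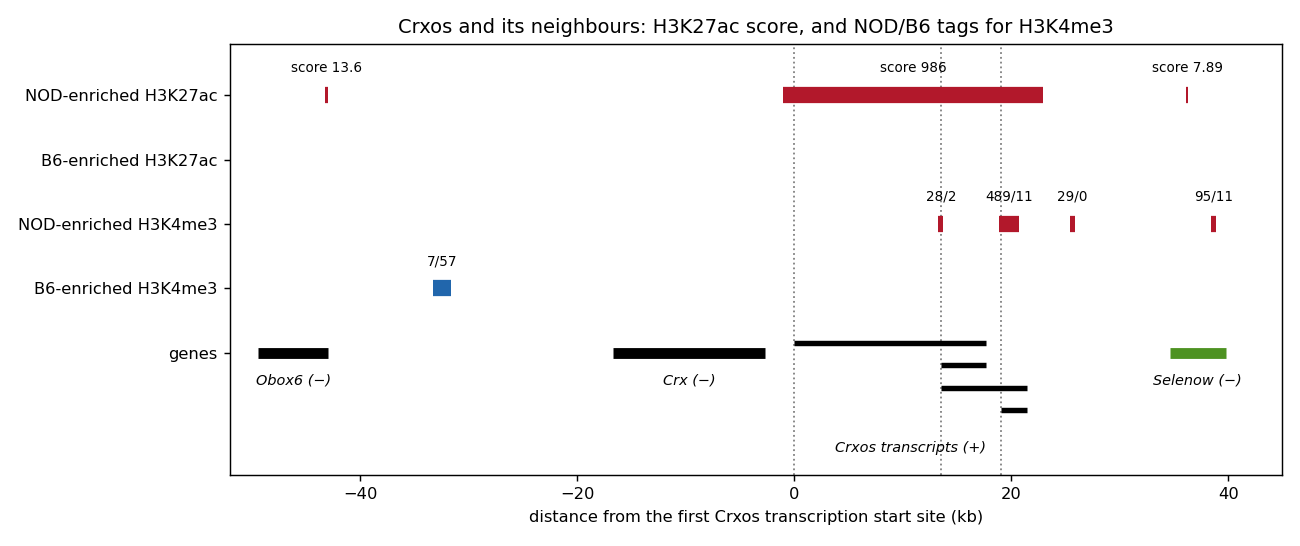
Strain-enriched regions from Obox6 to Selenow as bars (red, NOD-enriched; blue, B6-enriched) against the distance from the first Crxos start site in kb, with the H3K27ac score or the NOD/B6 H3K4me3 tags above each. Dotted lines are the 3 Crxos starts and thin black bars the 4 Crxos transcripts; the domain with a score of 986 spans all 3 starts, and H3K4me3 regions of 28 NOD and 2 B6 tags and of 489 NOD and 11 B6 tags lie at the second and the third.

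Crx lies at 15865947 to 15879955 on the minus strand. No listed region of any kind lay within the gene or over either of its starts. The nearest NOD-enriched H3K4me3 region was 15.9 kb and the nearest B6-enriched one 21.4 kb from its nearest start. Crx counted as having a NOD-enriched H3K27ac region nearby only because the Crxos domain began within 5 kb of its upstream start, and the file assigned no region to it. Of its 50-base words, 94.5% occur only once in the genome.

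The Obox6 region, from 15839394 to 15839685, was 291 bp wide and covered the start of the gene at 15839679. Its score was 13.6, rank 2914 of 6126, and the list median was 13.0. All of its 50-base words are unique in the reference. No H3K4me3 region accompanied it in the NOD list. The nearest H3K4me3 region, 9.63 kb upstream of the start from 15849307 to 15851005, was B6-enriched, with 57 tags in B6 and 7 in NOD, 12.5-fold higher in B6 (95% interval 5.70 to 32.6). It ranked 340 of 7587 in the B6 list. At Obox6 the 2 marks thus leaned to different strains at different places, though only 60.7% of the words of the B6-enriched region are unique in the genome, with up to 81 copies for the rest.

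The Obox3 region, from 15632869 to 15633186, lay in an intron of the gene 6.59 kb from its start. Its score was 15.9, rank 2554. The file annotates it as polypyrimidine low-complexity sequence, and 75.8% of its 50-base words are unique, with up to 1311 copies for the rest. The start of Obox3 itself had no region of either mark.

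Obox1, Obox2 and Obox5 had no listed region. From their starts, the nearest NOD-enriched H3K27ac region was 85.6 kb away for Obox1, 244 kb for Obox2 and 89.0 kb for Obox5. The nearest H3K4me3 region of either list was the B6-enriched one upstream of Obox6 for Obox1 and Obox5, at 302 kb and 98.9 kb. For Obox2 it lay 431 kb away, outside the window.

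Much of the Obox cluster is repeated sequence. Of the 50-base words of a gene, the read length of these libraries, the share that occurs only once in the reference was 20.2% for Obox2, 22.6% for Obox1, 38.9% for Obox3, 74.7% for Obox6, 77.7% for Obox5, 88.6% for Crxos and 94.5% for Crx. In Obox1 and Obox2, 98.3% and 98.5% of the repeated words had all their copies between 14.5 and 16.1 Mb of chromosome 7, and the median number of copies was 2. In Crxos this held for only 4.94% of the repeated words.

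The promoters of Obox1 and Obox5, at chr7:15547007-15547306 and chr7:15750120-15750419 on the plus strand, are shown as an example of likeness between cluster members.
Obox1: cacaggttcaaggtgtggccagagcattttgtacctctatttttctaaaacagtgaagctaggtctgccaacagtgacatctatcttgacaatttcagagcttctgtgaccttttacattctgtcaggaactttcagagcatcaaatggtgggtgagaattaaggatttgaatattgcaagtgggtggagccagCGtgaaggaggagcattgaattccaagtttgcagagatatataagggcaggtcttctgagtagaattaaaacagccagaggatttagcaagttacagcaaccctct
Obox5: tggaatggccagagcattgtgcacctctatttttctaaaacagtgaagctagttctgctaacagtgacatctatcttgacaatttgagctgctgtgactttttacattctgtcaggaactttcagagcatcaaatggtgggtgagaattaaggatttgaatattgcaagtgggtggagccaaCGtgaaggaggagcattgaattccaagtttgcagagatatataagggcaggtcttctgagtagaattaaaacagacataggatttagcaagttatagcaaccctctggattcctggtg

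They were identical at 275 of 312 aligned positions (88.1%). Obox1 and Obox2 were identical at 203 of 397 (51.1%). There the first part of the Obox1 promoter recurs base for base at the end of the Obox2 promoter, so the 2 stretches are offset. Obox3 shared 65.8% with Obox1 and 68.8% with Obox5. Not a single 50-base word of the Obox1 or the Obox2 promoter is unique in the genome, whereas 53.0% of those of Obox5, 42.6% of those of Obox3 and 100% of those of Crx are. Reads from the first 2 promoters cannot be placed at a single position of the reference, so the absence of a listed region there says little about the marks. The reference is a B6 genome, so these shares describe the B6 sequence. Copies and variants in NOD were not examined, and a difference between the strains in read placement was not tested. The 4 Obox promoters held 1 or 2 CpG dinucleotides each.

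Over the window the same gradient ran with the list. From its start to the middle of the gap between Obox5 and Obox6, 72.4% of its length, 27.02% of 50-base words are unique, and this stretch held 1 of the 14 regions, that in Obox3. The rest, from Obox6 to Napa, has 91.0% unique words and held 13. The adjoining window of equal length has 92.4%. RefSeq places 30 Obox pseudogenes in the window, 27 of them Obox4 copies and 3 Obox3 copies. The part of read placement in the number of listed regions was not tested.

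**Figure D3:**
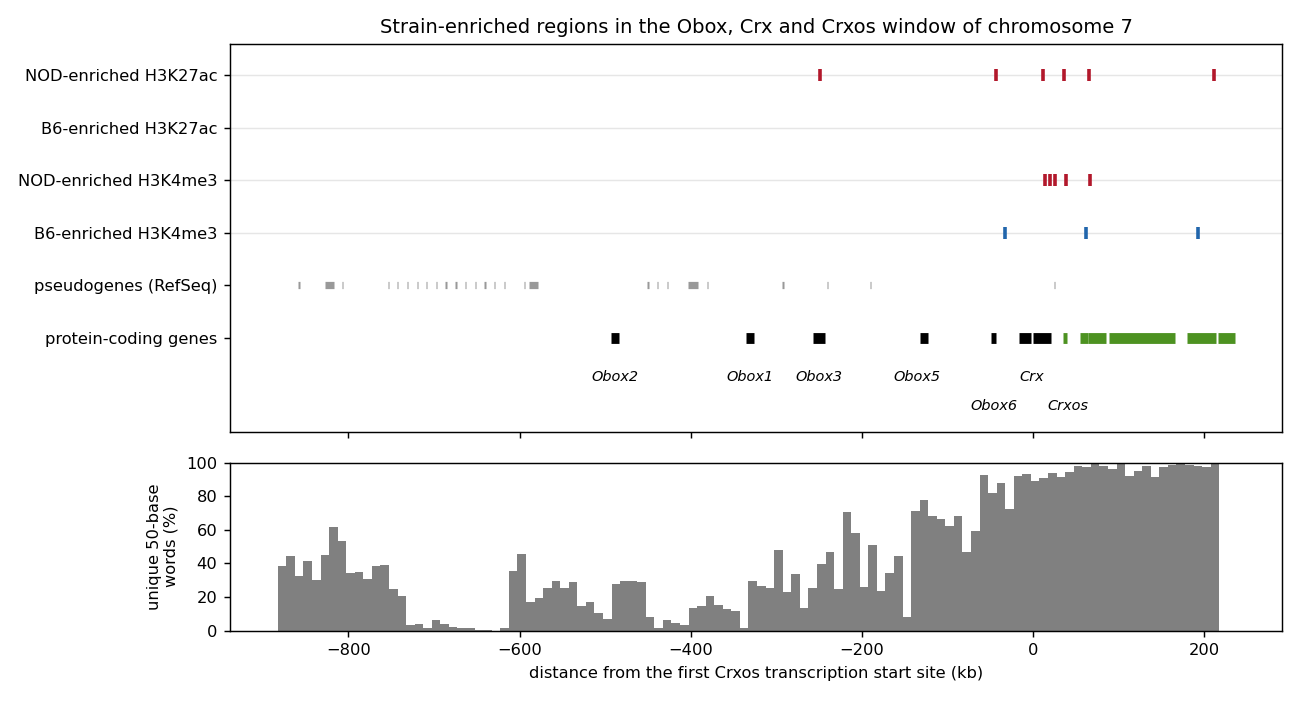
Upper panel: midpoints of the 14 strain-enriched regions by list (red, NOD-enriched; blue, B6-enriched), RefSeq pseudogenes (grey) and protein-coding genes (black, members; green, others) against the distance from the first Crxos start site in kb. Lower panel: share of 50-base words found only once in the genome in bins of 10 kb. Of the 14 regions, 13 lie from Obox6 onwards, where 91.0% of words are unique, and the row of B6-enriched H3K27ac is empty.

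Set beside all 21774 RefSeq protein-coding genes, the counts of members were as follows. In the NOD H3K27ac list, the file assigned a region to 3 of the 7 members (Crxos, Obox3 and Obox6), and to 18.9% of all genes. In the B6 H3K27ac list it did so for 0 of 7, and for 17.2% of all genes. By position, with a region at the gene body or within 5 kb of a TSS, 4 members counted in the NOD H3K27ac list against 16.5% of all genes, and 0 in the B6 H3K27ac list against 14.5%. For H3K4me3, 1 member (Crxos) counted in the NOD list against 24.4% of all genes, and 0 in the B6 list against 16.4%. With 7 genes chosen by their H3K27ac, nothing is read from these H3K27ac counts, and 1 of 7 for H3K4me3 is near the background.

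The window held 6 NOD-enriched and 0 B6-enriched H3K27ac regions, and 5 NOD-enriched and 3 B6-enriched H3K4me3 regions. The 6 and 0 for H3K27ac describe a window chosen for its NOD H3K27ac, and nothing is read from them. Over the genome, 52.6% of the strain-enriched H3K27ac regions were NOD-enriched. For H3K4me3 the NOD share was 62.5% in the window and 61.4% over the genome. The density of NOD-enriched H3K27ac was 5.45 regions per Mb, against 2.43 over the rest of the chromosome, and the adjoining window of equal length had 6.36 per Mb. The density of H3K4me3 regions was 4.55 per Mb in the NOD list and 2.73 per Mb in the B6 list, against 4.97 and 2.84 per Mb over the rest of the chromosome. These averages join 0 per Mb in both lists from the start of the window to the gap between Obox5 and Obox6 with 16.5 (NOD) and 9.88 (B6) per Mb from Obox6 to Napa, the stretches of 27.02% and 91.0% unique words.

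Beyond the window edges, a NOD-enriched H3K4me3 region with 14 NOD tags and 0 B6 tags lay 10.3 kb past the end, and a B6-enriched one with 28 B6 tags and 7 NOD tags lay 42.5 kb before the start. The nearest NOD-enriched H3K27ac regions lay 377 kb before the start and 130 kb past the end, with scores of 26.1 and 8.67. The nearest B6-enriched H3K27ac regions lay 226 kb past the end, near Bbc3, and 601 kb before the start, near Sult2a8, with scores of 11.1 and 7.58. Just inside the end of the window was the Zfp541 and Napa domain of 10.8 kb with a score of 86.1, rank 570. It spanned the start sites of Napa, which encodes the membrane fusion factor alpha-SNAP.

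Of the 6 other protein-coding genes in the window, all but Bicra had a listed region at the body or within 5 kb of a TSS. Next to Crxos, Selenow, which encodes a small selenoprotein, had an intronic NOD-enriched H3K4me3 region 1.09 kb downstream of its start with 95 NOD tags and 11 B6 tags (5.61-fold higher in NOD, 95% interval 3.0 to 11.6), and an H3K27ac region of score 7.89 in a B2 repeat. Between Crxos and Selenow, past a pseudogene, 29 NOD tags and 0 B6 tags were listed at 15908007 to 15908507. With a floor of 3 tags in B6 for the 0, NOD was 6.28-fold higher there. The exact 95% lower limit, which also covers counting error in the NOD tags, was 4.79. A further region with the same tags, at the 3′ end of Ehd2, had the same fold at the floor and the same lower limit. Beside it lay an H3K27ac region of score 14.4 that the file assigns to Nop53 under its older symbol Gltscr2. B6-enriched H3K4me3 lay in introns of Nop53 and of Zfp541. In Nop53 it comprised 27 B6 tags and 5 NOD tags (8.31-fold higher in B6, 95% interval 3.15 to 27.6). In Zfp541 it comprised 16 B6 tags and 0 NOD tags (8.20-fold higher in B6 with a floor of 3 NOD tags, exact 95% lower limit 5.93).

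Over the 5 NOD-enriched H3K4me3 regions of the window, which cover 3.91 kb, there were 670 NOD tags and 24 B6 tags, a scaled ratio of 18.2. As each region was listed for passing a fold threshold, this ratio describes the listed regions and not the window. The region over the third Crxos start alone gave most of these tags. Without it, 181 NOD tags and 13 B6 tags were left, a scaled ratio of 9.05. The 3 B6-enriched regions, over 2.70 kb, had 100 tags in B6 and 12 in NOD, a B6 to NOD ratio of 12.8.

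**Figure D4:**
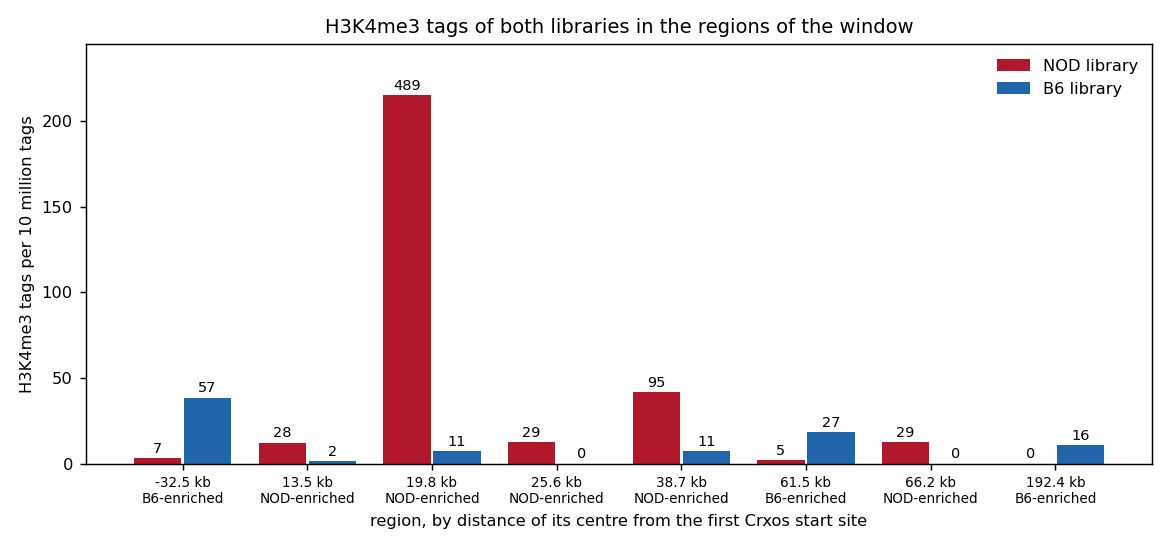
H3K4me3 tags per 10000000 tags of the library (bars from 0; red, NOD; blue, B6) in the 8 strain-enriched H3K4me3 regions of the window, in order along the chromosome and named by the distance of their centre from the first Crxos start site, with tag counts above the bars. The region over the third Crxos start stands at 215 in NOD and 7.44 in B6, and the next highest, in Selenow, at 41.8 in NOD.

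The genes most like Crxos over 4 values (summed H3K27ac score and summed normalised H3K4me3 tags, each in the NOD and in the B6 list, as log2 of the value plus 1) were Slc35g1, Tmem64, Mtus2, Hunk and Zfp970. Crxos had 986 for NOD H3K27ac and 227 for NOD H3K4me3, and it had 0 in both B6 lists, as did all 5. The closest, Slc35g1 on chromosome 19, had 974 and 254 at a Euclidean distance of 0.162, and the fifth, Zfp970 on chromosome 2, had 1990 and 379 at 1.25. Hunk on chromosome 16 had 432 and 252. Among the members, Obox3 and Obox6 were at distances of 9.79 and 9.92, and the others, with 0 in all 4 lists, at 12.7.

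Genes connected with the members were counted in the same way, by a region at the body or within 5 kb of a TSS. Of other Obox and divergent preimplantation homeobox genes (the list named Obox7, Duxbl1, Sebox, Nanog and others), 8 of 13 were in the RefSeq annotation and 0 had a region in any of the 4 lists. Of 31 genes of the 2-cell stage, the stage at which Obox genes are active, 2 had NOD-enriched H3K27ac, 1 B6-enriched H3K27ac, 5 NOD-enriched H3K4me3 and 3 B6-enriched H3K4me3. The Zscan4d region, at a gene used as a marker of 2-cell-like cells, had an H3K27ac score of 92.2 in NOD, rank 522. Tdpoz3 was in both H3K4me3 lists at different places, with 89 NOD tags and 6 B6 tags in one region and 19 B6 tags and 6 NOD tags in the other. Nr5a2, which encodes a nuclear receptor of early embryos and ES cells, had 65 NOD tags and 3 B6 tags in its top region. The shares for the 2-cell genes were 6.45% (H3K27ac) and 16.1% (H3K4me3) in the NOD lists and 3.23% and 9.68% in the B6 lists. Over all genes the shares were 16.5% and 24.4% in the NOD lists and 14.5% and 16.4% in the B6 lists. With only 8 and 31 genes, nothing is read from these differences. The share of words found only once in the genome was not computed for the preimplantation homeobox genes or the 2-cell genes. The part of read placement in their counts was therefore not tested.

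Of 14 Otx-related and other paired-class homeobox genes, 0 had H3K27ac in either list, 4 had NOD-enriched and 2 had B6-enriched H3K4me3. These are 28.6% and 14.3%, near the 24.4% and 16.4% of all genes. Pitx1 counted in both H3K4me3 lists, through different regions. Gsc had 149 NOD tags and 20 B6 tags, and Otx2, of the same Otx family as Crx, was B6-enriched with 36 B6 tags and 6 NOD tags. Of 16 photoreceptor genes that Crx is known to regulate, each of the 4 lists held regions of 1 (6.25%). This is below the shares over all genes, but with 16 genes nothing is read from the difference. The gene was Abca4 for H3K27ac in both strains, and Nr2e3 for H3K4me3 in NOD, with 22 NOD tags and 0 B6 tags.

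Sequence motifs were read at the centres of the regions. None of the 14 central stretches of 300 bases held TAATCC, the octamer ATGCAAAT or a Dux-type site on either strand. TAATCC was present in 12.7% of all NOD-enriched and 12.1% of all B6-enriched H3K27ac regions cut to the same length, and in 10.9% and 9.76% of H3K4me3 regions. The octamer was present in 1.65% to 2.46% of regions by list. Over its full length the Crxos domain held 20 copies of TAATCC, 0.835 per kb, and the Zfp541 and Napa domain held 4, 0.369 per kb. The short H3K27ac regions held 0, and the H3K4me3 regions 0 or 1 each. The window, in which only 44.7% of 50-base words are unique, held 0.524 per kb.

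The cell types could not be checked from lists of strain differences, since a marker gene with equal signal is not listed. Over all genes, 24.4% had NOD-enriched and 16.4% B6-enriched H3K4me3, and 16.5% and 14.5% had H3K27ac. Of 10 ES cell markers, 5 had a NOD-enriched and 2 a B6-enriched H3K4me3 region and 0 had H3K27ac. Of 5 markers of extraembryonic endoderm, 3 had NOD-enriched and 2 B6-enriched H3K4me3, and of 5 fibroblast markers 0 and 2 did. Of 5 trophoblast markers, 2 had NOD-enriched H3K27ac, each with a score of 7.77, 1 had B6-enriched H3K27ac, and 1 had NOD-enriched and 2 B6-enriched H3K4me3. A gene could count in both strains through different regions, as Esrrb, Tfcp2l1, Gata4, Foxa2 and Gata3 did for H3K4me3 and Tfap2c for H3K27ac. The part of other cell types in the values at Crxos was not tested.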

How the data were processed

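ChIP-Seq of H3K4me3 and H3K27ac was carried out on B6 and NOD ES cells, with 1 library for each strain and mark. The study's methods give mapping to mm10 by bowtie2 and analysis by HOMER v4.8. The submitters' processing notes instead list mm9, STAR 2.2.0c, CASAVA 1.8.2 and HOMER. Of the deposited TSS distances, 88.3% (NOD) and 87.9% (B6) matched a RefSeq GRCm38.p6 TSS within 2 bp, so coordinates were read as mm10.

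For H3K4me3, the authors called regions with the HOMER histone style (4-fold over the other strain) and deposited the tag count of both libraries and a normalised signal per 10000000 tags. NOD counts in the deposited NOD list are scaled to the B6 library, and whole NOD tags were recovered (largest offset 0.0769). Small values in place of 0 were read as 0. For H3K27ac, the deposited score is the signal of the own strain minus the other, from the HOMER super enhancer pipeline, and these lists hold no counts, so the depth is unknown. The authors' fold and p-value columns compare the 2 libraries and were not used.

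Widths are end minus start. Tag folds were scaled by library totals, with exact conditional 95% intervals (Clopper-Pearson) that cover counting error only. PCR duplicates are not independent molecules. Python 3.11.15, numpy 2.4.6, pandas 2.3.3, scipy 1.17.1, biopython 1.88 and matplotlib 3.10.9 were used. Words of 50 bases were counted on both strands over the reference, which is a B6 genome. The overlap, interval, motif and word functions were tested on simulated data. Named genes were the 7 members, the window genes, the 5 genes most like Crxos and up to 5 from each list with the highest values. Some genes of these lists are not reported here. Members and lists were chosen with earlier results of these data known. Alternatives are given in the closing section.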

Additional observations from a re-analysis of the deposited data

How the results depend on the processing

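Of 35 alternative settings over 15 results, 24 left the value within 1.5 times (for folds, within its interval) and 11 moved it. The 24 include B6 values of 0 that stayed at 0, and a stricter setting cannot change a 0. With an H3K27ac score of at least 20, the window held 2 NOD-enriched regions and the members 1, that at Crxos. Restricted to the span of the members with 10 kb on either side, the window held 3 NOD-enriched H3K27ac regions, 3 NOD-enriched H3K4me3 regions and 1 B6-enriched H3K4me3 region. With at least 50 own-strain tags, 2 NOD-enriched and 1 B6-enriched H3K4me3 regions were left. Within 20 kb of a TSS, 2 members had a NOD-enriched and 1 a B6-enriched H3K4me3 region. Without the region with the most tags, the pooled NOD to B6 fold was 9.05 in place of 18.2. Ranked by score per base pair, the Crxos domain was at 2493 in place of 3. These follow from the construction of each setting. No replicate could be left out, and depth limits folds with few tags to wide intervals.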
